A study of Mus musculus with 10 samples.

Results

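The Ube2 genes encode the ubiquitin-conjugating enzymes, or E2s. Their messenger RNA was measured in the kidney of male mice of the UM-HET3 stock, in which several inbred strains are crossed so that each animal is genetically different. Members were taken as the protein-coding genes of the count table whose GENCODE mouse symbol begins with Ube2 and a letter, which gave 37 of the 21474 protein-coding genes, among 43629 genes in all. The 4 rilmenidine kidneys came from mice that ate rilmenidine, a blood pressure drug that binds the I1-imidazoline receptor, at 10 ppm in the diet for 1 month from 3 months of age. The 6 control kidneys came from littermates of the same sex and age on the same Purina 5LG6 diet without the drug, and both groups were killed at 4 months. Each sample was described as a separate biological replicate. The methods of the study list more control kidneys than the 6 used here, and its liver libraries were not analysed here.

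Ubiquitin is a small protein that cells attach to other proteins, often to send them to the proteasome. An E1 enzyme activates ubiquitin and passes it to a cysteine of an E2, and the E2 then works with an E3 ligase that picks the target. The E2 largely sets which chain is built, and some E2s carry NEDD8, SUMO or ISG15 in place of ubiquitin. In the kidney, NEDD8-modified cullin ligases control proteins such as the hypoxia factors and the kinases that regulate salt transport in the distal tubule.

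The coding sequence around the catalytic cysteine shows what the members have in common and where an inactive member lacks it. It was read from GENCODE M21 transcripts on GRCm38, 5′ to 3′ on the coding strand, and each run is 33 bases long, with the last codon in capitals. In the first 5 genes the capitals are the cysteine codon, and in Ube2v1 they are the codon aligned with that cysteine of Ube2n, which codes for valine instead. Ube2b and Ube2r2 had the highest levels, Ube2m differed most, Ube2l6 carries ISG15, and Ube2n builds chains together with Ube2v1 or Ube2v2.
Ube2b: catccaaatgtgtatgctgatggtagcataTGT
Ube2r2: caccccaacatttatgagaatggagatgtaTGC
Ube2m: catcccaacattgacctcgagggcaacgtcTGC
Ube2l6: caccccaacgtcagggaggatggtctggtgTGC
Ube2n: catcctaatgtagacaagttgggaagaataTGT
Ube2v1: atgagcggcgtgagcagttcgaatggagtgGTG

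The cysteine was codon 88 in Ube2b, 93 in Ube2r2, 111 in Ube2m, 86 in Ube2l6 and 87 in Ube2n, and the aligned valine was codon 100 in Ube2v1, counted from the first codon. The runs of Ube2m (chr7:13036226-13036258, minus strand), Ube2l6 (chr2:84806439-84806471, plus strand) and Ube2n (chr10:95541403-95541435, plus strand) each lay within 1 coding exon. Those of Ube2b (chr11:51988678-51991403, minus strand), Ube2r2 (chr4:41174110-41183259, plus strand) and Ube2v1 (chr2:167609245-167610333, minus strand) crossed an intron. The histidine-proline motif that opens all of these runs but the last, followed by a cysteine, was found in the translated coding sequence of 23 of the 37 members. The 14 members without it included the inactive variants Ube2v1 and Ube2v2 and also E2s known to be active, such as Ube2z and the Ube2e, Ube2j and Ube2q genes. Over their aligned coding sequences Ube2a and Ube2b shared 77.6% of bases, Ube2v1 and Ube2v2 77.7%, Ube2d1 and Ube2d3 77.3%, and the NEDD8 enzymes Ube2m and Ube2f 62.5%.

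The libraries held 863605 to 3232063 counts, with a median of 1489031 in the control kidneys and 2483263 in the rilmenidine kidneys. Ube2 genes took 0.177% to 0.204% of them. The kidney markers Kap and Umod were high in all 10 libraries, with 28005 to 170342 and 1293 to 6361 counts. Not every listed kidney marker was high, as Slc5a2 had 3 to 20 counts, Slc4a1 2 to 14 and Nphs1 0 to 5. The liver genes Alb, Apoa1 and Serpina1a had at most 20, 4 and 58 counts, although the extraction text of the labels speaks of liver. The last of the 4 liver genes listed, Cyp2e1, which the proximal tubule of male mice also makes, had 1477 to 8318. Malat1, an RNA retained in the nucleus, stood between 284 and 2100 normalized CPM in the control kidneys and between 306 and 393 in the rilmenidine kidneys. Olfactory and vomeronasal receptor genes took at least 10 CPM in 7 libraries (5 control, 2 rilmenidine) and less in control 6, rilmenidine 3 and rilmenidine 4.

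Of the 37 members, 26 passed the filter on low counts, which asked for 6 or more reads in 7 or more of the 10 libraries, and 11 did not. The level of a gene was its normalized CPM, that is its counts scaled to the effective library size after RLE normalization. Ube2r2, a chain-building E2 of cullin ligases, was the most counted member, at 279 ± 40.3 CPM (SD, n = 6) in the control kidneys, and Ube2b followed at 254 ± 28.0. Ube2d3, of the broadly acting Ube2d subfamily, stood at 202 ± 10.8 CPM. The lowest of the tested members were Ube2u and Ube2q2, at 5.20 ± 2.36 and 5.37 ± 2.27 CPM.

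**Figure D1:**
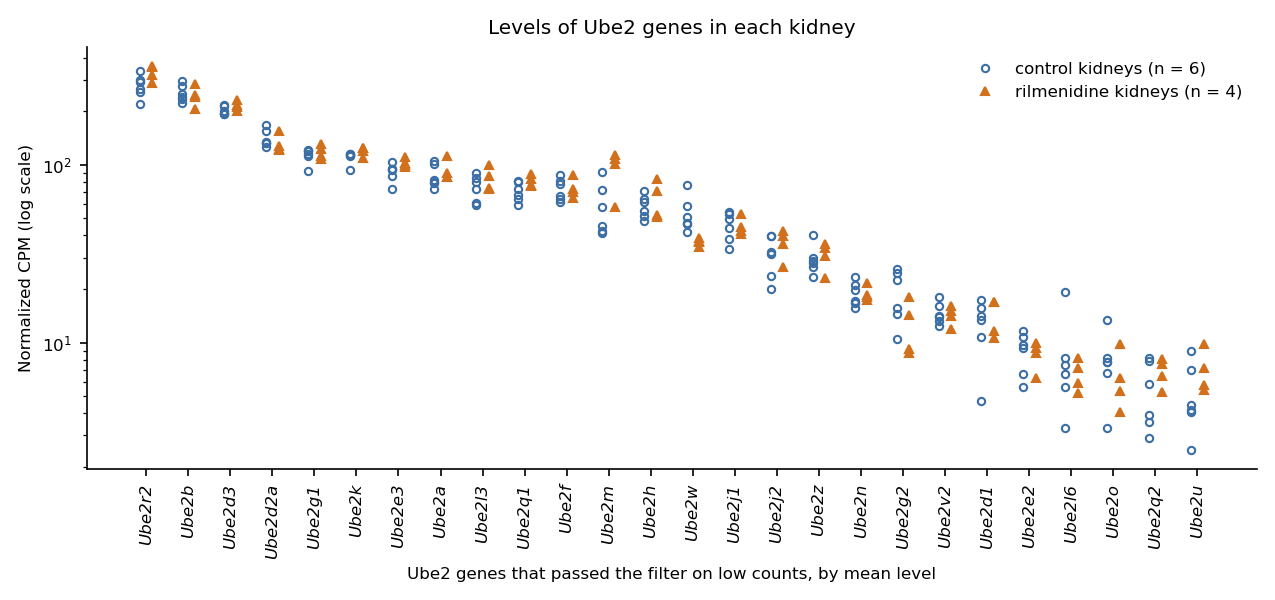
Normalized CPM (log scale) of the 26 tested Ube2 genes in each control kidney (open circles, n = 6) and each rilmenidine kidney (triangles, n = 4), ordered by mean level. Levels run from a mean of 299.5 CPM for Ube2r2 down to 5.94 CPM for Ube2u; the 4 Ube2w triangles lie below all of its circles, and 3 of the 4 Ube2m triangles lie above all of its circles.

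To compare genes with each other, CPM was divided by the exonic length in kilobases. On this scale, CPM per kilobase, Ube2b led the order at 118 over all kidneys, ahead of Ube2r2 at 71.5, Ube2a at 39.3, Ube2m at 31.0 and Ube2g1 at 25.2. Ube2a and Ube2b are the mammalian counterparts of yeast Rad6, which marks histone H2B and the replication clamp PCNA. At the other end stood Ube2v2 at 2.03, Ube2e2 at 1.90, Ube2q2 at 1.39 and Ube2o at 1.37 CPM per kilobase. The control ranges of Ube2b (105 to 140 CPM per kilobase), Ube2r2 (52.5 to 80.4) and Ube2a (32.3 to 46.2) did not overlap with each other. Of the 25 pairs of neighbours in the order, 3 had control ranges that did not overlap, the last being Ube2e3 (16.6 to 23.7) above Ube2k (11.9 to 14.6). The library method cited by the labels reads the 3′ ends of transcripts, so dividing by length lowers long genes, and Ube2d3, the third highest by CPM, stood at 8.47 CPM per kilobase.

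Most members were even among control kidneys. The median coefficient of variation of a Ube2 gene among the 6 control kidneys was 15.98%, beside 23.5% over all 10055 genes tested. Members and all genes were not matched on level, and the part of level in this gap was not tested. Ube2d3 varied by 5.35% and Ube2k, a builder of lysine-48-linked chains, by 7.44%. Ube2l6, at 65.8%, Ube2u, at 45.4%, and Ube2q2, at 42.2%, varied most, and each of the 3 had a mean under 10 CPM in the control kidneys.

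Between the groups, 0 of the 26 tested members passed an adjusted p of 0.05 (quasi-likelihood test of edgeR, Benjamini-Hochberg), as did 0 of all genes (0%). By unadjusted p under 0.05, Ube2m was higher and Ube2w lower with rilmenidine, so 1 of 26 members passed in each direction, beside 4.43% of all genes higher and 6.13% lower. DESeq2 and edgeR's likelihood ratio test also called 0 members by adjusted p, although they called 60 and 44 genes in all. By unadjusted p they called 2 members each, 1 in each direction. Beside these, DESeq2 had 419 genes higher and 566 lower, and the likelihood ratio test 385 higher and 607 lower, of 10055. With a looser filter, a single read in any library, 1 of 33 members passed by adjusted p, namely Ube2m, where 241 of 27565 genes (0.874%) did.

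Leaving out a kidney moved the adjusted calls over all genes to as many as 31 without control 2 and 37 without control 6, and to 6 without rilmenidine 1, with 0 members among them.

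The smallest adjusted p of a member was 0.296 (Ube2w) and the largest 0.989, in edgeR's quasi-likelihood test. The log2 fold changes ran from −0.53 to 0.70, with a median of 0.09 against 0.00 over all genes, and 16 of 26 (61.5%) were above 0 against 50.3% of all genes. With library size as a covariate the median of the members was −0.0055 and 13 of 26 were above 0, with Malat1 the median was 0.02, with the replicate block 0.05, and within the 7 libraries with receptor genes 0.03. The median standard error was 0.17 for the members and 0.22 for all genes. For 23 of 26 members the log2 fold change was within 0.5 of 0, and for 20 of 26 the 95% interval lay within 1 log2 unit of 0. In whole kidney tissue, fewer cells of a type and less RNA per cell cannot be told apart.

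**Figure D2:**
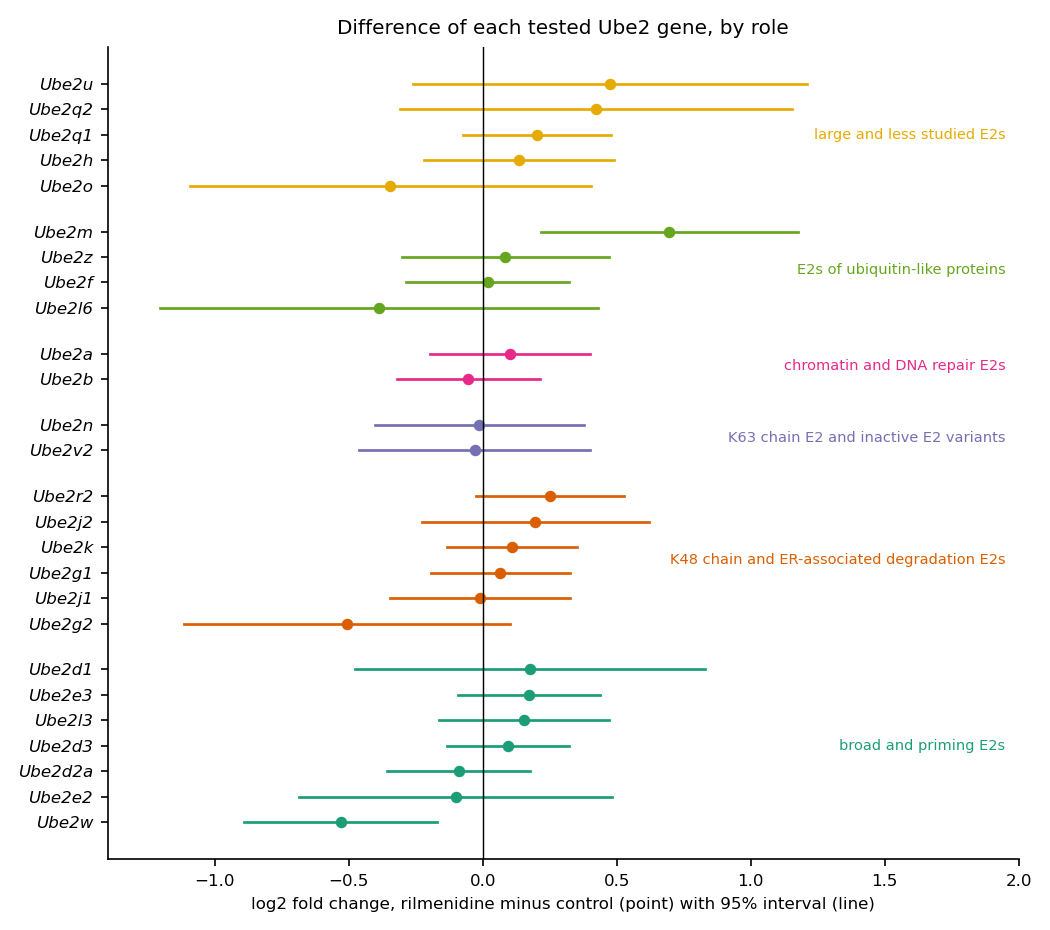
Log2 fold change of each tested Ube2 gene, rilmenidine minus control (points), with its 95% interval (lines), grouped by role. The interval of Ube2m lies above 0 and that of Ube2w below 0, and the other 24 intervals include 0.

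The E2s of ubiquitin-like proteins held the member with the largest difference. Ube2m (chr7:13035120-13038275, minus strand) encodes an E2 that passes NEDD8 to cullins through the ring protein Rbx1. Its level was 41.5, 51.6 and 91.1 CPM at the lowest, median and highest of the control kidneys, and 100.3, 57.6, 114 and 108 CPM in rilmenidine 1 to 4. Rilmenidine 1, 3 and 4 thus stood above every control kidney, while rilmenidine 2 lay below control 2, control 4 and control 6, so the groups overlapped.

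The means of Ube2m were 58.4 ± 19.8 CPM (SD, n = 6) and 95.1 ± 25.6 (SD, n = 4), a fold of 1.62 with a 95% interval of 1.16 to 2.26. The log2 fold change was 0.70 with a standard error of 0.23, at an unadjusted p of 0.00710 and an adjusted p of 0.300 in edgeR's quasi-likelihood test. With the looser filter the log2 fold change was the same 0.70 and the adjusted p 0.00610 in the same test. Its standard error was then 0.17, from a spread shared across genes rather than from the kidneys of Ube2m alone.

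Ube2m was measured by 38 to 347 reads per library, and no stretch of 100 bases of its transcripts occurred in a transcript of another gene. With the log2 library size as a covariate its log2 fold change was 0.38 (95% interval −0.21 to 0.97), with the Malat1 level as a covariate 0.42 (−0.17 to 1.01), and within the 7 libraries with at least 10 CPM of receptor genes 0.41 (−0.23 to 1.05). Each of these intervals included 0. The 7 libraries hold rilmenidine 1 and 2 alone of the treated kidneys, and leave out rilmenidine 3 and 4, the highest in Ube2m. Library size and Malat1 moved with the groups, and their part in the difference of Ube2m was not tested beyond these fits.

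Ube2f, the other NEDD8 enzyme, acts on the cullin Cul5 through Rnf7. It stood at 61.7, 71.9 and 88.0 CPM at the lowest, median and highest of the control kidneys, and at 70.2, 64.6, 73.5 and 87.4 CPM in rilmenidine 1 to 4. The ranges overlapped almost fully, and the log2 fold change was 0.02 ± 0.14 (SE), with a 95% interval of −0.29 to 0.32.

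Other genes of the NEDD8 branch, chosen after their values were seen, gave small differences on the log2 scale. NEDD8 itself gave 0.04 and its activating enzyme subunits Uba3 and Nae1 gave −0.13 and −0.18. The ring partners Rbx1 and Rnf7 gave 0.13 and 0.11. None of these 5 genes passed an unadjusted p of 0.05, the smallest being 0.256 for Nae1 in edgeR's quasi-likelihood test.

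Ube2l6 encodes the E2 for ISG15, a modifier induced by interferon. Its level was 3.32, 7.10 and 19.2 CPM at the lowest, median and highest of the control kidneys, and 5.22, 8.15, 5.95 and 7.18 CPM in rilmenidine 1 to 4. Control 2 stood far above every other kidney, and without it the log2 fold change of −0.39 ± 0.39 (SE; edgeR adjusted p = 0.771) became 0.03. With the library size or Malat1 as a covariate it was −0.73 ± 0.47 or −0.83 ± 0.43 (SE).

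Ube2z, an E2 charged by the enzyme Uba6 that can carry FAT10, differed by 0.08 ± 0.18 on the log2 scale.

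**Figure D3:**
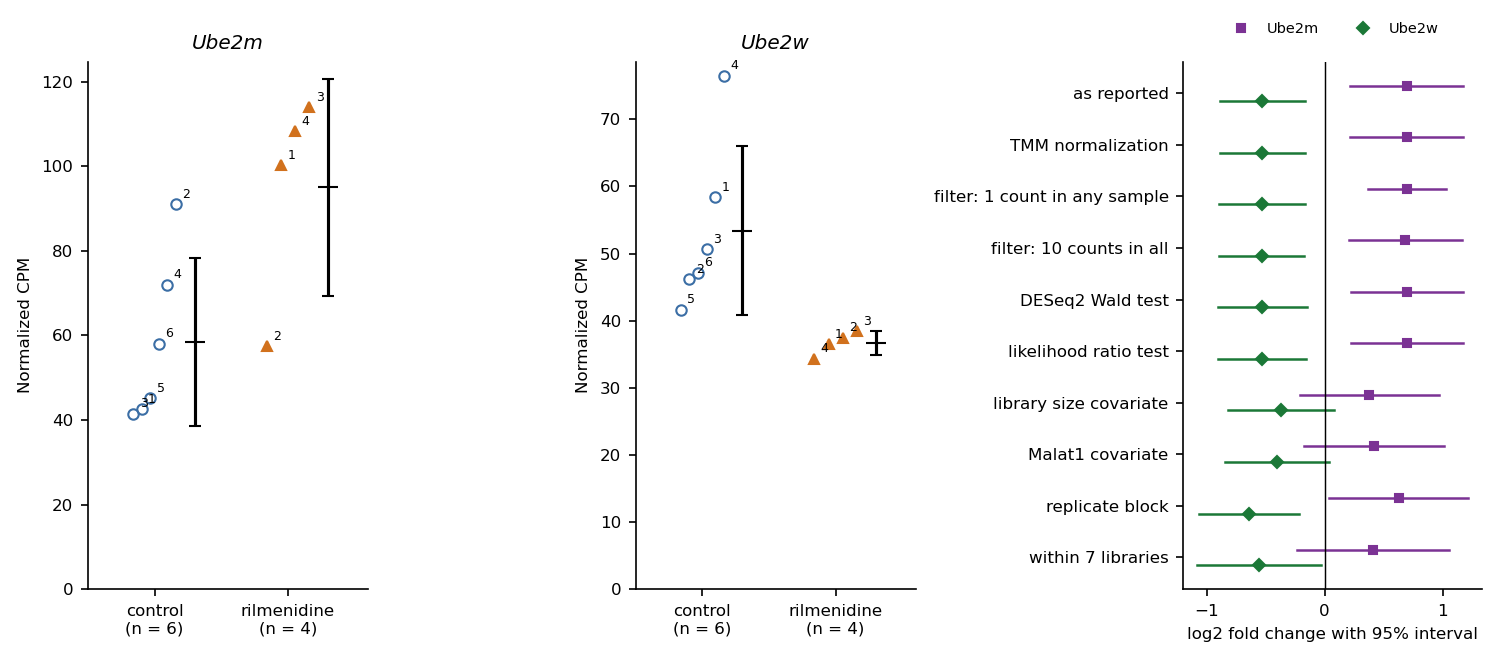
Left and middle, normalized CPM of Ube2m and Ube2w in each kidney (numbers are replicate numbers) with mean and SD. Right, log2 fold change with 95% interval under each setting, where the 7 libraries are those with at least 10 CPM of receptor genes; Ube2m moves from 0.70 to 0.38 and Ube2w from −0.53 to −0.37 with library size as a covariate.

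Among the broadly acting and priming E2s, 7 of 9 members were tested, 4 were above 0, and the median log2 fold change was 0.09. Ube2w (chr1:16540790-16619489, minus strand) was the member that was lower with rilmenidine by unadjusted p. It attaches single ubiquitins to the amino terminus of proteins. Its level was 41.6, 48.9 and 76.5 CPM at the lowest, median and highest of the control kidneys, and 36.5, 37.5, 38.5 and 34.4 CPM in rilmenidine 1 to 4. Every rilmenidine kidney lay below every control kidney.

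No other member separated in this way, so 1 of 26 members was lower without overlap and 0 were higher, beside 0.875% of all genes lower and 0.796% higher. The means of Ube2w were 53.4 ± 12.6 CPM (SD, n = 6) and 36.7 ± 1.76 (SD, n = 4), a fold of 0.693 with a 95% interval of 0.539 to 0.889. The log2 fold change was −0.53 with a standard error of 0.17, at an unadjusted p of 0.00660 and an adjusted p of 0.296 in edgeR's quasi-likelihood test.

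The nearest values of Ube2w in the groups were 38.5 CPM in rilmenidine 3 and 41.6 in control 5, and the highest, 76.5 CPM, was in control 4. Without control 4 the log2 fold change was −0.40 (95% interval −0.71 to −0.08). With the library size or the Malat1 level as a covariate it was −0.37 (−0.82 to 0.08) or −0.41 (−0.85 to 0.03), and within the 7 libraries with receptor genes −0.56 (−1.08 to −0.03). The gene was measured by 52 to 121 reads per library, and 5.13% of its exonic bases lay antisense to Gm38342.

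The Ube2d enzymes work with a large share of the ring ligases. Ube2d3 differed by 0.09 ± 0.11 (SE) on the log2 scale, Ube2d2a by −0.09 ± 0.13 and Ube2d1 by 0.18 ± 0.31. Ube2d1 was the least even of them, at 4.68, 13.7 and 17.4 CPM at the lowest, median and highest of the control kidneys. Its lowest value was in control 6, without which the log2 fold change was −0.04. With the library size or Malat1 as a covariate it was 0.89 ± 0.30 or 0.83 ± 0.36 (SE), and Ube2d1 was then the only member under an unadjusted p of 0.05.

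Of the Ube2e genes, whose products carry an amino-terminal extension, Ube2e3 differed by 0.17 ± 0.13 and Ube2e2 by −0.10 ± 0.28 on the log2 scale. Ube2e1 had 63 reads over all libraries and was not tested, and 50.0% of the 100-base stretches at its 3′ end also occurred in Nkiras1, an antisense neighbour with 899 reads. Ube2l3, which serves HECT and ring-between-ring ligases such as parkin, differed by 0.15 ± 0.15, and 28.6% of its exonic bases lay antisense to Ydjc.

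The E2s of lysine-48-linked chains and of degradation from the endoplasmic reticulum were all tested, 4 of 6 were above 0, and their median log2 fold change was 0.09. Ube2r2 stood at 220, 279 and 337 CPM at the lowest, median and highest of the control kidneys, and at 320.1, 289, 358 and 357 CPM in rilmenidine 1 to 4. Rilmenidine 3 and 4 lay above every control kidney. The log2 fold change was 0.25 ± 0.13 (SE), with a 95% interval of −0.03 to 0.53 and an unadjusted p of 0.0727 in edgeR's quasi-likelihood test. It was 0.31 without control 2, and again 0.31 without rilmenidine 2, with an unadjusted p under 0.05 in both, and 0.08 ± 0.15 (SE) with Malat1 as a covariate.

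Ube2g2 extends chains on misfolded proteins of the endoplasmic reticulum. It stood at 10.4, 19.0 and 25.8 CPM at the lowest, median and highest of the control kidneys, and at 8.70, 9.23, 14.3 and 18.1 CPM in rilmenidine 1 to 4. Rilmenidine 1 and 2 were below every control kidney and the other rilmenidine kidneys were within the control range. The log2 fold change was −0.51 ± 0.29 (SE), with a 95% interval of −1.11 to 0.10 and an unadjusted p of 0.0968. Within the 7 libraries with receptor genes, which hold rilmenidine 1 and 2 alone of the treated kidneys, it was −1.12 ± 0.39, and it was −0.63 ± 0.27 without control 5 and −0.74 ± 0.31 without rilmenidine 4 (SE), each with an unadjusted p under 0.05 and an adjusted p of at least 0.340 in edgeR's quasi-likelihood test. Ube2g2 was measured by 15 to 58 reads per library, and Ube2r2 by 268 to 1142.

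Ube2j2 and Ube2j1, anchored in the endoplasmic reticulum membrane, differed by 0.20 ± 0.20 and −0.01 ± 0.16 on the log2 scale. Ube2k differed by 0.11 ± 0.11 and Ube2g1 by 0.07 ± 0.12. Both had a low value in control 5, of 93.7 CPM for Ube2k and 92.0 for Ube2g1, below all 9 other kidneys.

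Lysine-63-linked chains, used in signalling and DNA repair, are built by Ube2n together with an inactive variant. Ube2n gave 18.9 ± 2.90 CPM in the control and 18.9 ± 1.91 in the rilmenidine kidneys, a log2 fold change of −0.01 ± 0.18 (SE). Ube2v2 gave −0.03 ± 0.20 on the log2 scale. Ube2v1 was listed with 2 reads in all, 1 each in rilmenidine 3 and 4. Of its exonic bases 61.5% lay within Gm20431 on the same strand, which had 0 counts in every library. The part of this overlap in the low count was not tested, and the level of Ube2v1 could not be read from these counts.

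The chromatin and repair E2s Ube2a and Ube2b differed by 0.10 ± 0.14 and −0.05 ± 0.13 (SE) on the log2 scale. Ube2b, at the top of the order per kilobase, stood at 223, 246 and 297 CPM at the lowest, median and highest of the control kidneys, and at 241, 206, 284 and 246 CPM in rilmenidine 1 to 4. Rilmenidine 1, 3 and 4 lay within the control range, and rilmenidine 2 was below it. Ube2t, the E2 of the Fanconi anaemia pathway, had 54 reads and was not tested, and 17 of them were in rilmenidine 2.

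Both E2s of the anaphase-promoting complex, the ligase that drives exit from mitosis, were under the filter. Ube2c had 1 to 14 reads per library and Ube2s had 0 in all 10. A count of 0 allows up to 3 counts, or 0.928 to 3.47 CPM depending on the library, for counting error only. Of the 12 genes listed as cell cycle markers, 5 passed the filter.

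Among the large and less studied E2s, 4 of 5 tested genes were above 0 and the median log2 fold change was 0.20. Ube2q1 stood at 59.0, 70.0 and 80.7 CPM at the lowest, median and highest of the control kidneys, and at 88.1, 77.1, 76.3 and 83.1 CPM in rilmenidine 1 to 4. All rilmenidine values were above the control median, and rilmenidine 1 and 4 were above every control kidney. The log2 fold change was 0.20 ± 0.13 (SE), at an unadjusted p of 0.143 in edgeR's quasi-likelihood test.

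Ube2h, the partner of the Maea ligase complex, differed by 0.14 ± 0.17 on the log2 scale. The low genes Ube2u and Ube2q2 gave 0.47 ± 0.35 and 0.42 ± 0.35, and their intervals reached from −0.26 to 1.21 and from −0.31 to 1.15. Ube2o, a very large E2 that also acts as a ligase, stood lowest per kilobase, at 3.32, 7.79 and 13.3 CPM at the lowest, median and highest of the control kidneys, and at 4.06, 9.77, 6.30 and 5.31 CPM in rilmenidine 1 to 4. Its groups overlapped, with a log2 fold change of −0.34 ± 0.35. Ube2ql1, with 15 reads in all, was not tested.

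In all, 4 members (Ube2s, Ube2d2b, Ube2dnl1 and Ube2dnl2) had 0 counts in every library. Ube2cbp, which the symbol rule takes in although its product is an E2-binding protein, had 30 reads over the control and 10 over the rilmenidine kidneys. With the looser filter the 7 untested members with reads gave log2 fold changes from −1.49 (Ube2cbp) to 1.92 (Ube2v1, from 2 reads), with unadjusted p from 0.0864 to 0.749 in edgeR's quasi-likelihood test.

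The members were then followed kidney by kidney, as the log2 normalized CPM minus its mean over the control kidneys. The median of this deviation over the 26 members was −0.14 to 0.08 in the control kidneys and 0.01 to 0.15 in the rilmenidine kidneys. The lowest median was in control 5, which had the lowest value of all kidneys for 7 of the 26 members and the highest Malat1 level, and the highest median was in rilmenidine 3, which had the highest value for 9 members and 3042036 counts. Rilmenidine 1 and 2 were within the control range of medians and rilmenidine 3 and 4 above it, and these last are also the largest libraries.

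**Figure D4:**
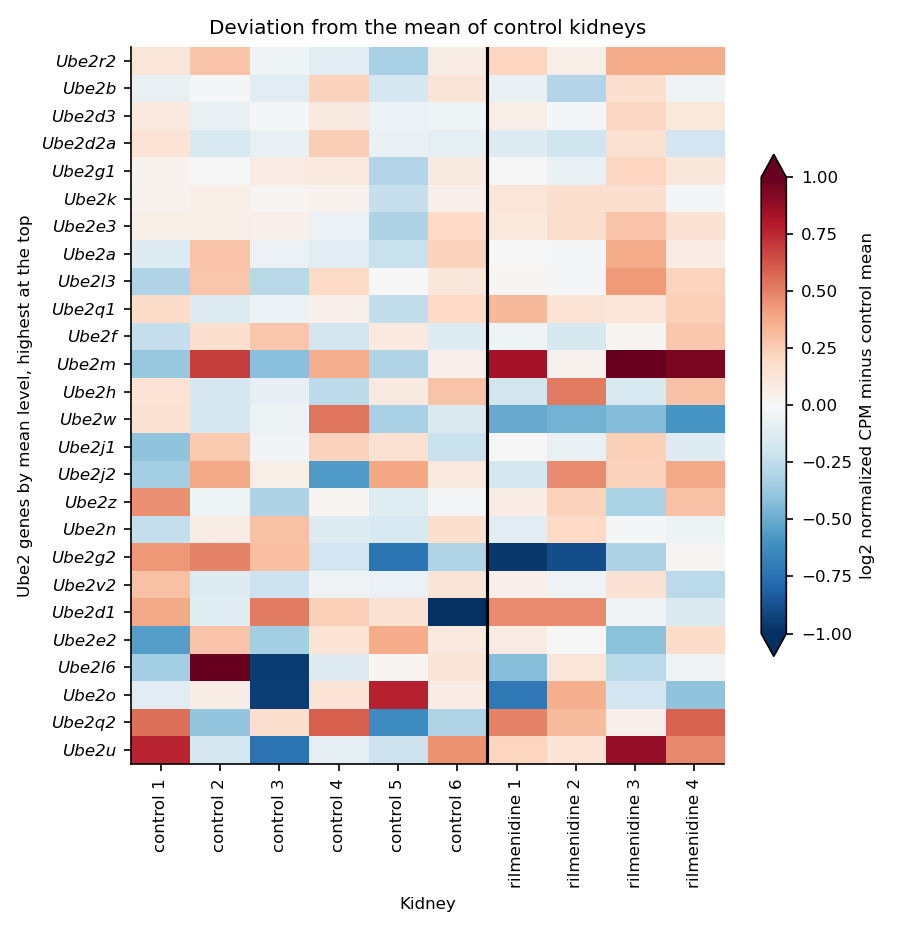
Deviation of each tested Ube2 gene in each kidney from its mean over the control kidneys, on the log2 scale (colour, limited to 1 in either direction), with genes ordered by mean level. The Ube2m row is dark red in rilmenidine 1, 3 and 4 and near 0 in rilmenidine 2, and the Ube2w row is blue in all 4 rilmenidine kidneys.

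The rest of the pathway was described by lists that carry no test of their own. Of 9 genes for E1 enzymes, 7 were tested, 2 were above 0 and 0 passed an unadjusted p of 0.05, with a median log2 fold change of −0.15. Uba1, the main ubiquitin-activating enzyme, differed by 0.15 ± 0.12 (SE) and Uba6, the other one, by −0.59 ± 0.35. Of 12 ubiquitin and modifier genes 7 were tested and 0 passed, among them the polyubiquitin gene Ubb at 0.28 ± 0.23.

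Some genes that every cell uses had few reads, named here after their values were seen. Rps27a, which encodes ubiquitin fused to a ribosomal protein, had at most 9 reads per library. Fau had at most 8 reads, Sumo2 at most 4 and the ligase gene Stub1 at most 1. The share of 100-base stretches in the last 500 transcript bases that also occurred elsewhere was 91.5% for Rps27a, 44.4% for Fau, 80.5% for Stub1 and 0% for Sumo2. Their part in the low counts was not tested.

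Of 8 genes with the E2 fold under other symbols, 7 were tested, 4 were above 0 and the median log2 fold change was 0.03. By unadjusted p 1 was higher, beside 4.43% of all genes. This was Ufc1, the E2 of the modifier UFM1, at 62.9, 74.4 and 95.3 CPM at the lowest, median and highest of the control kidneys, and 94.5, 88.0, 100.4 and 102 CPM in rilmenidine 1 to 4. The groups overlapped, and the log2 fold change was 0.30 ± 0.14 (SE; edgeR adjusted p = 0.456). It was 0.10 ± 0.16 with library size and 0.09 ± 0.14 with Malat1 as a covariate. The unadjusted call was lost with both, with the likelihood ratio test, the looser filter and the replicate block, within the 7 libraries, and without control 1, 3, 4 or 5 or rilmenidine 1, 3 or 4. Cdc34, the close relative of Ube2r2, differed by 0.06 ± 0.16.

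Of 54 ligase genes listed as partners of named E2s, 48 were tested, 15 were above 0 and the median log2 fold change was −0.10. By unadjusted p 1 was higher and 6 were lower, beside 4.43% and 6.13% of all genes, and 0 passed by adjusted p. The lower genes with the smallest p were Ube4a, a chain-elongation factor, at −0.57 ± 0.20 (SE; edgeR adjusted p = 0.321), Rnf2, the histone H2A ligase of Polycomb, at −0.45 ± 0.18 (adjusted p = 0.368), and Huwe1, a giant HECT ligase, at −0.45 ± 0.18 (adjusted p = 0.390). The higher one was Anapc11, the ring subunit of the anaphase-promoting complex, at 0.41 ± 0.19 (edgeR adjusted p = 0.455). With Malat1 as a covariate Ube4a was at −0.13 ± 0.19, Rnf2 at −0.35 ± 0.21, Huwe1 at −0.06 ± 0.17 and Anapc11 at 0.17 ± 0.21 (SE), and 0 of the 4 then passed an unadjusted p of 0.05. With library size they were at −0.32 ± 0.25, −0.48 ± 0.23, −0.34 ± 0.24 and 0.48 ± 0.23, and again 0 of 4 passed. Within the 7 libraries with receptor genes Anapc11 was at 0.67 ± 0.24. The unadjusted call of Rnf2 was also lost without control 4 or rilmenidine 1, that of Huwe1 without control 3, 4 or 5 or rilmenidine 1, 2 or 3, and that of Anapc11 without control 3, 4 or 5 or rilmenidine 1 or 2. Of 20 deubiquitinase genes 18 were tested and 0 passed by unadjusted p.

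Ube4a stood at 36.3, 50.0 and 68.5 CPM at the lowest, median and highest of the control kidneys, and at 26.7, 39.1, 36.7 and 34.0 CPM in rilmenidine 1 to 4, so rilmenidine 2 and 3 lay within the control range. Of 14 interferon-stimulated genes 7 were tested and 3 were above 0, with a median log2 fold change of −0.03. By unadjusted p 1 was lower, beside 6.13% of all genes. This was Rsad2, an antiviral enzyme, at 23.2, 29.0 and 33.7 CPM at the lowest, median and highest of the control kidneys, and 22.6, 22.8, 18.9 and 16.9 CPM in rilmenidine 1 to 4. The groups did not overlap, and the log2 fold change was −0.52 ± 0.18 (SE; edgeR adjusted p = 0.313). It was −0.31 ± 0.25 within the 7 libraries with receptor genes, which leave out rilmenidine 3 and 4, the lowest in Rsad2. With library size as a covariate it was −0.44 ± 0.22 and with the replicate block −0.48 ± 0.23. The unadjusted p of Rsad2 was above 0.05 in each of these fits.

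**Figure D5:**
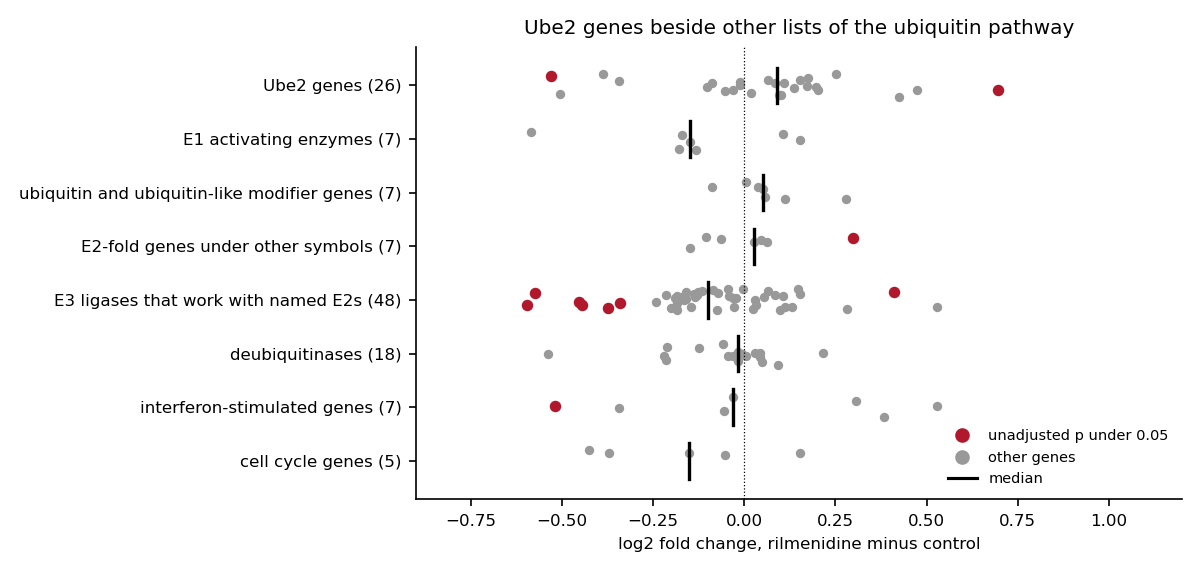
Log2 fold changes, rilmenidine minus control, of the tested Ube2 genes and of the other lists of the pathway (number tested in brackets), with the median of each list as a bar and genes under an unadjusted p of 0.05 in red. The Ube2 median is 0.09, the ligase median −0.10 and the E1 median −0.15; the lists carry no test.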

How the data were processed

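The authors deposited counts of reads per gene for kidney RNA, raw and not normalized. The submitters' processing notes name bcl2fastq 1.8.4, Trimmomatic 0.32, STAR 2.5.2b, featureCounts 1.5 and build mm10. The labels cite the CEL-Seq2 protocol, which reads 3′ ends and tags molecules. Strand setting, annotation release and use of the tags are not given in the sources used here, so counts of overlapping, antisense and near-identical genes are uncertain. Libraries held 863605 to 3232063 counts.

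Samples were grouped by their labels into 6 control and 4 rilmenidine kidneys, and no pair of libraries agreed within sampling noise. Symbols and exonic lengths came from GENCODE M21 (GRCm38). The 10055 genes that reached 6 reads in 7 or more of the 10 libraries were kept, the study's own rule on low counts, normalized by RLE as in the study, and fitted in edgeR 4.0.16 (R 4.3.3) with the quasi-likelihood test (two-sided) on all 10 libraries without covariates. p-values were adjusted by Benjamini-Hochberg over all genes tested, at a threshold of 0.05. The fit was tested on simulated counts. Intervals are 95% intervals from the standard error. Floors of 3 counts cover counting error only.

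Alternatives were TMM, 2 other filters, DESeq2 1.42.0, the edgeR likelihood ratio test, covariates of log2 library size and Malat1, the replicate number as a block, the 7 libraries with receptor gene reads, and leaving out each kidney. The members, the lists and the alternatives were chosen with earlier results of these data known. Full values are given for members with unadjusted p under 0.05, the 3 smallest p in each direction, both ends of the level order and the E2s of ubiquitin-like proteins, and for listed pathway genes with unadjusted p under 0.05 (at most 3 per direction and list). Other genes were named after their values were seen. Transcripts were compared in 100-base stretches, for the whole transcript and its last 500 bases. Some genes that these rules take in, 1 member among them, are not reported here.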

Additional observations from a re-analysis of the deposited data

Results flagged for a closer look

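Of 52 groups (26 members in the control and in the rilmenidine kidneys), 3 held a kidney set apart from the rest of its group by Dixon's criterion, where chance gives about 1 in 20 groups, or 2.6 here. Control 5 was low in Ube2g1, at 91.97 CPM against 112.7 to 121.1 in the other control kidneys. It was also low in Ube2k, at 93.7 CPM against 112 to 115.1. Control 2 was high in Ube2l6, at 19.18 CPM against 3.32 to 8.188 in the other control kidneys.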

How the results depend on the processing

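The count of members past an adjusted p of 0.05 was 0 under each alternative except the looser filter (1 read in any library), where it was 1 (Ube2m). That filter also put the median log2 fold change over all genes at 0.08, and its fit used a spread shared across genes. The unadjusted count, 2 as reported, was 1 with the library size covariate and 1 with the Malat1 covariate (Ube2d1 in both, higher). Of all 10055 genes, 218 were higher and 214 lower by unadjusted p with library size, and 149 higher and 156 lower with Malat1. The count of members rose to 3 without control 2 or rilmenidine 2, where Ube2r2 joined as higher. It was also 3 without control 5, without rilmenidine 4 and with the replicate block, where Ube2g2 joined as lower. Beside these, 613 genes were higher and 759 lower without control 2, and 514 and 704 without rilmenidine 2. The numbers were 311 and 428 without control 5, and 406 and 556 without rilmenidine 4. The median log2 fold change of the members was −0.0055 with the library size covariate. Over 19 alternatives, 38 of 489 member values changed sign, in 14 of 26 members, while 12 members kept theirs. The cause was not tested.

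With library size as a covariate the values that changed sign were Ube2f −0.075, Ube2a −0.085, Ube2j2 −0.021, Ube2v2 0.0099, Ube2l3 −0.085 and Nedd8 −0.027. With Malat1 they were Ube2a −0.14, Ube2j1 0.013, Ube2g1 −0.0086 and Nedd8 −0.039. Within the 7 libraries with receptor genes they were Ube2f −0.15, Ube2n 0.073, Ube2g1 −0.025, Ube2v2 0.039 and Ube2l3 −0.013. Leaving out 1 kidney at a time gave ranges of −0.075 to 0.077 for Ube2f, −0.10 to 0.059 for Ube2v2, −0.53 to 0.032 for Ube2l6, −0.10 to 0.045 for Ube2j1, −0.078 to 0.048 for Ube2n, −0.042 to 0.30 for Ube2d1, −0.0049 to 0.23 for Ube2h, −0.13 to 0.020 for Ube2b, −0.20 to 0.030 for Ube2e2 and −0.0039 to 0.21 for Ube2z.

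Kidneys of the same replicate number showed no sign of pairing, although low correlations over all genes cannot exclude one. The deviations of same-numbered kidneys correlated at 0.076, 0.077, −0.077 and −0.0070, and no kidney correlated best with its own number. With the replicate block 3 genes passed an adjusted p of 0.05 in all and 0 members did. By unadjusted p under 0.05, 1 of 26 members was higher and 2 were lower, beside 375 and 542 of all 10055 genes. Ube2d1 (−0.075), Ube2n (0.00097) and Ube2e2 (0.049) changed sign.

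Depth limits the 11 members under the filter, where a count of 0 allows up to 3.47 CPM in the smallest library, for counting error only. Shared sequence is a further limit for some of them. Of the exonic bases of Ube2v1 61.5% lay within Gm20431, and 50.0% of the 3′ stretches of Ube2e1 occurred in Nkiras1. Library size, Malat1 and receptor gene reads differed between kidneys of this small set, and their part in the values was not tested beyond the fits above.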
